A study of Saccharomyces cerevisiae with 7 samples.

Results

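The cell wall integrity MAP kinase pathway of Saccharomyces cerevisiae was followed through 10 genes, from the sensors at the cell surface to the transcription factor at the end of the cascade. The genes were chosen by name, with earlier results of these data known (WSC1, MID2, ROM2, RHO1, PKC1, BCK1, MKK1, MKK2, SLT2 and RLM1). Each of the 10 had 1 probeset, a group of short probes against its transcript, out of the 5498 on the array that name S. cerevisiae genes. WSC1 stands in the gene table under its other symbol, SLG1. None of the 10 probesets is marked in its identifier as matching more than its own transcript.

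RNA came from 7 independent cultures of a single cir+ strain, NRRL Y-12632 (ATCC 18824). In 4 cultures the YPD medium, a rich medium of yeast extract, peptone and glucose, was made with water that had leached asbestos mine tailings (simulated asbestos mine drainage), and in 3 it was made with deionized water (control). All were started from a culture in control media and grown with shaking at 30 °C for 24 h before harvest. The labels of the control cultures speak of 4 control replicates, but the sample titles number 3 and the methods name 3, all analysed here. The media differ in everything that the tailings water brings, so a difference belongs to the mine drainage media as a whole. A lower signal from a culture cannot tell less RNA in each cell from fewer cells that hold it.

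In yeast the plasma membrane sensors Wsc1 and Mid2 respond to strain on the cell wall and recruit Rom2, which loads the small GTPase Rho1 with GTP. Rho1 then activates protein kinase C (Pkc1), and Pkc1 starts a cascade in which Bck1 phosphorylates the kinases Mkk1 and Mkk2 and these phosphorylate the MAP kinase Slt2, which in turn activates the transcription factor Rlm1 and, with it, genes of wall construction. The pathway is known for responses to heat, wall-damaging compounds, low osmolarity and polarized growth. Signalling runs through phosphorylation, and the arrays measure transcript signal only.

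Transcripts of both sensors were higher in mine drainage, while those of the exchange factor, the MAP kinase and the transcription factor were lower. WSC1, MID2 and MKK1 rose, by 0.64, 0.48 and 0.38 on the log2 scale. ROM2, SLT2 and RLM1 fell by 0.54, 0.67 and 0.49 on the log2 scale. PKC1 and BCK1 had differences of 0.37 and -0.35 that did not pass the test, and RHO1 and MKK2 differed by -0.02 and -0.15. The call rests on an adjusted p under 0.05 from limma, which estimates the spread of a probeset with help from all the others, on RMA log2 signals (background-corrected, quantile-normalized and summarized by the authors).

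By that rule 3 genes rose, 3 fell and 4 were not called, against 14.5% of all 5498 probesets that rose, 17.1% that fell and 31.6% that changed in either direction. The mine drainage arrays lay above every control array for 3 of the 10 genes and below every control array for 3, where this held for 17.7% and 20.5% of all probesets (38.2% in either direction). The median difference over the 10 genes was -0.09, beside -0.03 over all probesets. Without control replicate 2, 1 gene of the 10 rose and 2 fell, and without control replicate 3, 1 rose and 1 fell. Calls fell over the whole array in the same fits, from 795 higher and 942 lower of all 5498 probesets to 324 and 364 without control replicate 2 and to 415 and 446 without control replicate 3. The median size of the difference, whatever its sign, was 0.43 for the 10 genes and 0.24 for all probesets.

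**Figure D1:**
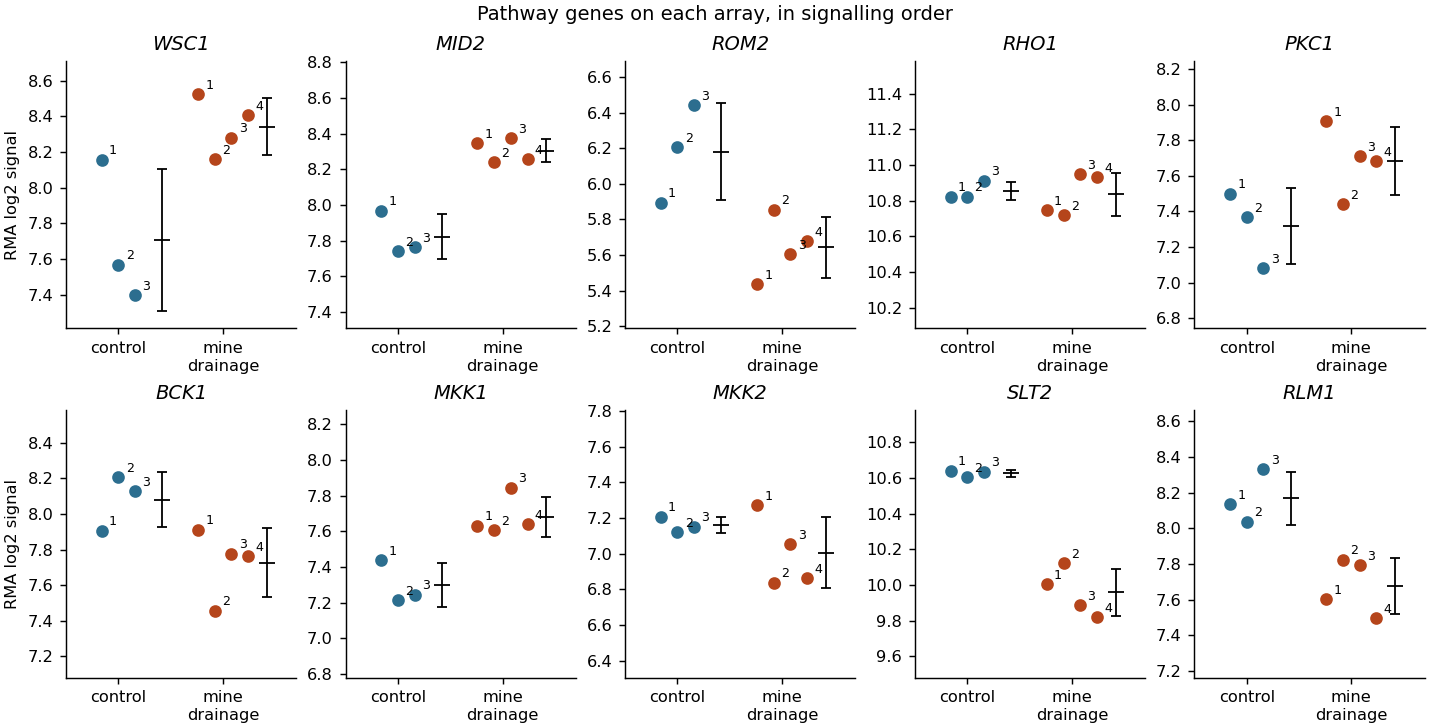
RMA log2 signal (vertical axis, a span of equal height in each panel) of the 10 pathway genes on the 3 control arrays (blue) and the 4 mine drainage arrays (red), with the replicate number beside each point and the group mean ± SD as a black bar. The groups are apart for WSC1, MID2, ROM2, MKK1, SLT2 and RLM1, and the WSC1 value of control replicate 1 (8.157) nearly meets that of mine drainage replicate 2 (8.159).

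The arrays differed in ways that bear on single genes. For 6 of the 10 genes (WSC1, MID2, ROM2, PKC1, BCK1 and MKK1) control replicate 1 alone lay furthest of the controls in the direction of the mine drainage mean, where this held for 56.5% of all probesets. Mine drainage replicates 1 and 2 were the extremes of their group for 5 of the 10 genes (WSC1, ROM2, PKC1, BCK1 and MKK2), where this held for 33.1% of all probesets. The 3′ signal minus the 5′ signal, taken over 8 control transcripts of yeast and a sign of RNA integrity and of how labelling ran along a transcript, averaged 0.69 ± 0.16 (SD, n = 4) in mine drainage and 0.95 ± 0.17 (SD, n = 3) in control on the log2 scale (exact permutation test, two-sided, p = 0.114). The lowest signal of any of the 10 genes was 5.44. The 95th percentile of the 1746 Schizosaccharomyces pombe probesets annotated with a single gene symbol was 1.52, well below it, and that species was not grown here.

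Both sensors rose. WSC1 encodes a sensor with a cysteine-rich head and a long mannosylated stem that reaches into the wall. Its log2 signal was 8.53, 8.16, 8.28 and 8.41 on mine drainage arrays 1 to 4 and 8.16, 7.57 and 7.40 on control arrays 1 to 3. The groups did not overlap, but they were separated only by the third decimal, since control replicate 1 had covered 0.784 of the distance between the remaining controls and the mine drainage mean. The means were 8.34 ± 0.16 and 7.71 ± 0.40, a rise of 1.55-fold (log2 difference 0.64, standard error 0.17, adjusted p = 0.0231 from limma). The control SD was the widest of any of the 10 genes in either group. Without control replicate 1 the difference was 0.86 (adjusted p = 0.00306), and it missed the threshold without control replicate 2 (0.57, adjusted p = 0.0989), control replicate 3 (0.48, adjusted p = 0.0952) or mine drainage replicate 4 (0.61, adjusted p = 0.0574). With that 3′ minus 5′ value of each array added to the fit it was 0.27 (adjusted p = 0.274). That value was lower in mine drainage for 6 of its 8 transcripts, so the fit cannot fully separate it from the group. Whether RNA integrity accounts for any call lost with this covariate, here or below, was not tested.

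MID2 encodes the other main sensor of the pathway, with a serine- and threonine-rich outer part. Mine drainage arrays 1 to 4 gave log2 signals of 8.35, 8.24, 8.37 and 8.26, and control arrays 1 to 3 gave 7.97, 7.74 and 7.76. The groups were apart, and the mine drainage arrays lay close together. MID2 rose from 7.82 ± 0.13 (SD, n = 3) to 8.30 ± 0.066 (SD, n = 4), or 1.40-fold (standard error 0.097 on the log2 scale, adjusted p = 0.00733 from limma). The call held with any single array left out (0.44 to 0.55). It missed the threshold in a single setting, with the 3′ minus 5′ covariate (0.40, adjusted p = 0.0723).

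ROM2, which encodes the main guanine nucleotide exchange factor for Rho1, fell. Its log2 signals were 5.44, 5.85, 5.61 and 5.68 in mine drainage and 5.89, 6.21 and 6.44 in control. The groups did not overlap, though mine drainage replicate 2 and control replicate 1 were neighbours. The mean fell from 6.18 ± 0.27 to 5.64 ± 0.17, or 1.45-fold (log2 difference -0.54, standard error 0.15, adjusted p = 0.0220 from limma). The call was lost without mine drainage replicate 3 (-0.52, adjusted p = 0.0556), control replicate 2 (-0.52, adjusted p = 0.0833) or control replicate 3 (-0.41, adjusted p = 0.0900). It was also lost with a coding length trend removed (-0.39, adjusted p = 0.0622) and with the 3′ minus 5′ covariate (-0.23, adjusted p = 0.246).

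RHO1 encodes the GTPase at the centre of the pathway, which also regulates glucan synthase and the actin cytoskeleton. Its signals were 10.74, 10.72, 10.95 and 10.93 in mine drainage and 10.82, 10.82 and 10.91 in control. The control values lay inside the range of the mine drainage values. The difference was -0.02 with a 95% interval from -0.24 to 0.20 (adjusted p = 0.912 from limma), and it turned positive after a median shift (0.0084), among other settings.

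PKC1, the protein kinase C of yeast, had log2 signals of 7.91, 7.44, 7.71 and 7.68 in mine drainage and 7.50, 7.37 and 7.08 in control. Only mine drainage replicate 2 fell within the range of the controls. The difference of 0.37 (95% interval 0.06 to 0.68) did not pass the test (adjusted p = 0.0652 from limma). It passed without mine drainage replicate 2 (0.45, adjusted p = 0.0314) or control replicate 1 (0.46, adjusted p = 0.0433), with weights for the arrays (0.36, adjusted p = 0.0134), and once a coding length trend was removed (0.51, adjusted p = 0.0221). The PKC1 difference shrank to 0.07 with the 3′ minus 5′ covariate (adjusted p = 0.687) and to 0.25 without control replicate 3 (adjusted p = 0.237).

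BCK1, the MAP kinase kinase kinase, had 7.91, 7.46, 7.78 and 7.76 in mine drainage and 7.91, 8.21 and 8.13 in control. The overlap came from mine drainage replicate 1 (7.911) and control replicate 1 (7.905). Its difference of -0.35 (95% interval -0.64 to -0.07, adjusted p = 0.0602 from limma) was opposite in sign to that of PKC1, the gene before it in the cascade. It passed without mine drainage replicate 1 (-0.41, adjusted p = 0.0383) or control replicate 1 (-0.44, adjusted p = 0.0388) and with array weights (-0.41, adjusted p = 0.00514). The BCK1 difference shrank to -0.21 once a coding length trend was removed (adjusted p = 0.203) and to -0.29 without control replicate 2 (adjusted p = 0.216).

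**Figure D2:**
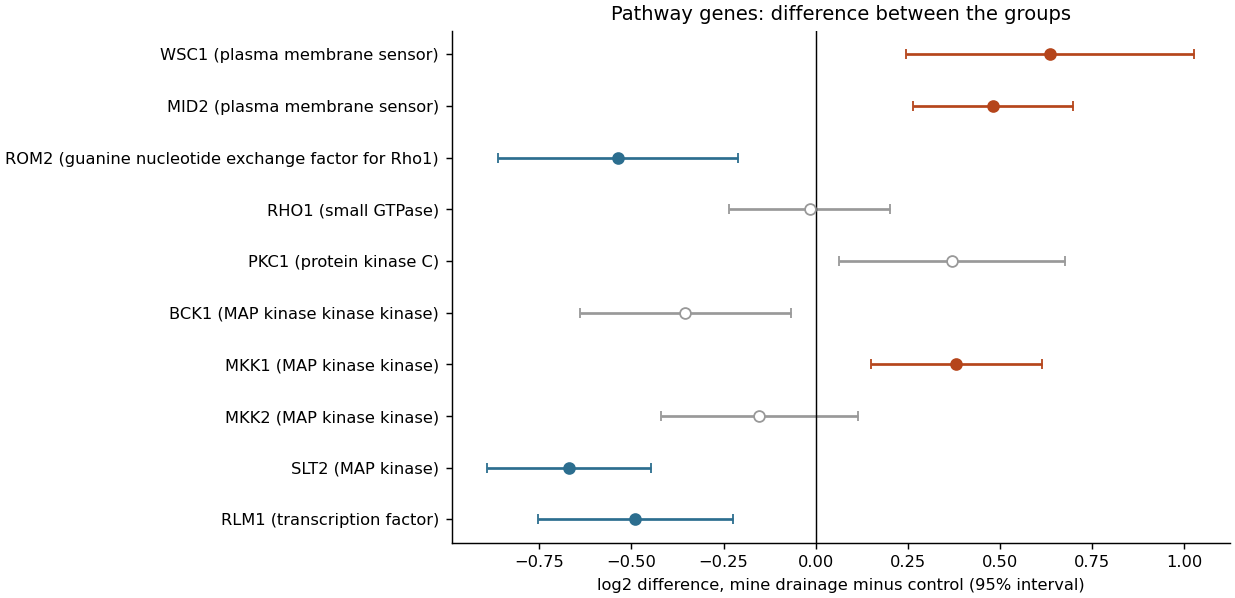
Log2 difference between mine drainage and control (horizontal axis) for the 10 genes in signalling order, with 95% intervals from limma. Filled points passed an adjusted p under 0.05 (red higher, blue lower) and open points did not: both sensors and MKK1 stand to the right of 0, and ROM2, SLT2 and RLM1 to the left.

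MKK1 and MKK2 encode a duplicated pair of MAP kinase kinases that act on Slt2 side by side. MKK1 had log2 signals of 7.63, 7.61, 7.85 and 7.64 in mine drainage and 7.44, 7.22 and 7.24 in control, with no overlap. It rose from 7.30 ± 0.12 to 7.68 ± 0.11, or 1.30-fold (standard error 0.10 on the log2 scale, adjusted p = 0.0218 from limma). The call was lost without mine drainage replicate 3 (0.33, adjusted p = 0.0563), control replicate 2 (0.34, adjusted p = 0.103) or control replicate 3 (0.35, adjusted p = 0.0787), and with the 3′ minus 5′ covariate (0.34, adjusted p = 0.135). With the covariate the standard error of the MKK1 difference was 0.14. MKK2 had 7.27, 6.84, 7.05 and 6.86 in mine drainage and 7.21, 7.12 and 7.15 in control. Its 3 control values lay close together, while mine drainage replicate 1 stood above them and the rest of the mine drainage arrays below, and its difference was -0.15 (95% interval -0.42 to 0.11, adjusted p = 0.347 from limma).

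Whether the genes of a duplicated pair differed in their response was tested on the difference of their log2 signals within each array. The level of that difference depends on the probes, so only its change between the groups can be read. For MKK1 minus MKK2 it was 0.36, 0.77, 0.79 and 0.78 in mine drainage and 0.23, 0.09 and 0.09 in control. All mine drainage arrays were above all control arrays, and mine drainage replicate 1 was the nearest to them. The change of 0.54 had p = 0.0571 in an exact, two-sided permutation test (35 possible splits, so no p below 0.0286), and p = 0.171 when adjusted over the 4 pairs examined. A single pair at the smallest p would still have 0.114 after that adjustment, so the design could not bring 1 pair alone under 0.05.

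SLT2, the MAP kinase of the pathway, had the smallest p of the 10 genes. Its log2 signals were 10.00, 10.12, 9.89 and 9.82 in mine drainage and 10.64, 10.61 and 10.63 in control. The groups were clearly apart, and control replicate 1 lay with the other controls. The mean fell from 10.63 ± 0.019 to 9.96 ± 0.13, a fall of 1.59-fold (log2 difference -0.67, standard error 0.10, adjusted p = 0.00293 from limma). SLT2 passed the threshold in each of the 17 other settings tried, though allowing shared probesets could not change its value. Its differences ranged from -0.80 after a further quantile normalization to -0.62 without mine drainage replicate 4.

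RLM1 encodes the MADS-box transcription factor that Slt2 phosphorylates. Mine drainage arrays gave 7.60, 7.82, 7.79 and 7.50, all below the control values of 8.13, 8.04 and 8.33. RLM1 fell from 8.17 ± 0.15 to 7.68 ± 0.16, or 1.40-fold (log2 difference -0.49, standard error 0.12, adjusted p = 0.0138 from limma). Without control replicate 3 it missed the threshold (-0.41, adjusted p = 0.0626), as it did with the 3′ minus 5′ covariate (-0.31, adjusted p = 0.151).

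In a gene-by-gene analysis of variance, the kind of test the methods name, the spread is not shared between probesets. With Benjamini-Hochberg adjustment and no fold limit it called only MID2 (adjusted p = 0.0330) and SLT2 (adjusted p = 0.0304) among the 10 genes. MKK1 (adjusted p = 0.0513), RLM1 (0.0553), ROM2 (0.0861) and WSC1 (0.0988) missed the threshold there. Of all 5498 probesets, 6.58% were called higher in that way and 6.69% lower. Differential expression was defined otherwise in the methods, by an unadjusted p under 0.05 with a fold of at least 1.5. Under that definition WSC1 was higher and SLT2 lower, MID2 (1.40-fold) fell short of the fold limit, and 5.66% of all probesets were higher and 7.02% lower.

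In a list of other genes known to act in the pathway, more fell than rose. Of 30 further genes (sensors, GTPase regulators, related GTPases, upstream kinases, phosphatases, the Slt2 paralog, transcription factors and polarity proteins), 11 fell, 3 rose and 16 were not called. Here 46.7% changed, beside 31.6% of all probesets (14.5% higher and 17.1% lower), and their median difference was -0.15. The list was written with earlier results of these data known, so its counts describe the listed genes and do not test the pathway. The counts varied with single arrays: without control replicate 2, 5 fell, without control replicate 3, 7 fell, and without control replicate 1, 5 rose. With a coding length trend removed 7 fell and 5 rose, and with the 3′ minus 5′ covariate 4 fell and none rose (3 rose and 11 fell without it). The covariate lowered the calls over all probesets as well, to 228 higher and 283 lower, and the counts over all probesets without control replicates 2 and 3, given above, fell too. Without control replicate 1 they were 832 and 980, and with the coding length trend removed 891 and 791.

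The remaining sensors did not pass the test. WSC3, a relative of WSC1, had a difference of 0.31 with no overlap between the groups (adjusted p = 0.0604 from limma). It passed without control replicate 1 (0.39, adjusted p = 0.0314), among other settings. WSC2 had 0.21 (adjusted p = 0.117) and WSC4 had -0.05 (adjusted p = 0.772). MTL1, the paralog of MID2, had 0.06 (adjusted p = 0.798), a sign that turned after a further quantile normalization (-0.051). The within-array difference of MID2 and MTL1 changed by 0.43 (exact permutation p = 0.0857, and 0.171 adjusted over the 4 pairs).

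Among regulators of Rho1, the further exchange factor genes ROM1 and TUS1 fell as ROM2 did. ROM1, the paralog of ROM2, had log2 signals of 5.99, 5.97, 5.82 and 5.68 in mine drainage and 6.29, 6.30 and 6.62 in control, with no overlap. It fell by 0.54 on the log2 scale (standard error 0.12, adjusted p = 0.0104 from limma), a call lost in the gene-by-gene test (adjusted p = 0.0509) and with the 3′ minus 5′ covariate (-0.43, adjusted p = 0.110). TUS1, another exchange factor for Rho1, fell by 0.53 (adjusted p = 0.00988, and 0.0831 with the covariate). The within-array difference of ROM2 and ROM1 changed by 0.0025 (exact permutation p = 0.971). LRG1, a GTPase activating protein that turns Rho1 off, also fell, and by more: it had 6.16, 5.85, 5.80 and 6.14 in mine drainage and 6.77, 6.88 and 6.52 in control, or -0.73 between the means (standard error 0.13, adjusted p = 0.00503 from limma). The remaining genes of GTPase activating proteins in the list were not called. SAC7 had 0.03, BEM2 -0.16 and BAG7 -0.45 (adjusted p = 0.885, 0.318 and 0.0740 from limma). RDI1, the gene of a GDP dissociation inhibitor, had 0.08 (adjusted p = 0.511) and was not called either. Transcripts of factors that switch Rho1 on were thus lower in the same cultures as that of LRG1. LRG1 was the only listed gene of a GTPase activating protein that was called. Its call held with the covariate (-0.97, adjusted p = 0.0193), where those of ROM2, ROM1 and TUS1 did not.

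The related GTPases went both ways. RHO3, of polarized secretion, fell from 9.54 ± 0.21 to 8.94 ± 0.15 (adjusted p = 0.00877 from limma), and missed the threshold by little without control replicate 2 (-0.52, adjusted p = 0.0502), in the gene-by-gene test (adjusted p = 0.0502) and with the covariate (-0.64, adjusted p = 0.0563). RHO4, which shares functions with RHO3 in bud growth, rose from 6.06 ± 0.21 to 6.73 ± 0.20 (adjusted p = 0.00847), with no overlap between the groups. Its call was lost in the gene-by-gene test (adjusted p = 0.0530) and with the covariate (0.64, adjusted p = 0.0723). RHO2 had a difference of 0.50 that did not pass (adjusted p = 0.0548), but did without mine drainage replicate 1 (0.60, adjusted p = 0.0326), without control replicate 1 (0.65, adjusted p = 0.0245) and after a further quantile normalization (0.60, adjusted p = 0.0301).

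SDP1 had the largest rise of the 30 genes. It encodes a phosphatase that acts on Slt2 itself. Its log2 signals were 6.35, 6.32, 6.98 and 6.70 in mine drainage and 5.86, 5.86 and 5.25 in control, with no overlap. The rise was 1.91-fold (log2 difference 0.93, standard error 0.20, adjusted p = 0.00880 from limma), and it held with any single array left out (0.73 to 1.03). It was lost in the gene-by-gene test (adjusted p = 0.0656) and with the 3′ minus 5′ covariate (0.75, adjusted p = 0.104). Other phosphatase genes of the pathway were not called: PTP2, PTP3 and MSG5, whose products act on MAP kinases, had -0.03, -0.14 and -0.05, and PTC1 had -0.18. PPZ1, a phosphatase gene singled out after its values were seen as the last of the 3 that rose, had 0.28 (adjusted p = 0.0419), and its call was lost on leaving out any single array other than mine drainage replicate 2 and with the covariate (0.18, adjusted p = 0.278).

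KDX1, the paralog of SLT2, whose product lacks the usual activity of a MAP kinase, fell with it. It had 5.49, 5.50, 5.15 and 5.38 in mine drainage and 5.68, 5.91 and 6.03 in control, or -0.49 between the means (standard error 0.12, adjusted p = 0.0161 from limma). The groups did not overlap, and the call was lost without control replicate 2 (-0.47, adjusted p = 0.0725) or 3 (-0.41, adjusted p = 0.0705), with the 3′ minus 5′ covariate (-0.41, adjusted p = 0.134) and in the gene-by-gene test (adjusted p = 0.0617). The difference of SLT2 and KDX1 within arrays changed by -0.18 (exact permutation p = 0.229), and by -0.43 after a further quantile normalization.

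SKN7, a transcription factor that binds Rho1 and also serves in osmotic and oxidative stress, fell by 0.71 on the log2 scale (9.45, 8.95, 9.10 and 9.14 in mine drainage, 9.67, 10.06 and 9.88 in control, adjusted p = 0.00655 from limma). SPA2, a polarity scaffold that holds Mkk1 and Slt2 at sites of growth, fell by 0.63 (9.09, 9.11, 8.80 and 9.02 against 9.49, 9.68 and 9.74, adjusted p = 0.00471). In both genes the groups were apart, and both calls held with any single array left out, with the covariate and in the gene-by-gene test. PKH1, a kinase that acts on Pkc1, had a difference of -0.45 that did not pass (adjusted p = 0.0702), but did without mine drainage replicate 1 (-0.55, adjusted p = 0.0359) or control replicate 1 (-0.62, adjusted p = 0.0204). PKH2, also listed as an upstream kinase, had -0.46 and passed (adjusted p = 0.0220 from limma), as did the kinase gene YPK1 with -0.45 (adjusted p = 0.0380). Neither had overlap between the groups, and both calls were lost in the gene-by-gene test (adjusted p = 0.0729 and 0.111). BNI1 had -0.41 and SWI6, a transcription factor gene, had -0.38, and both were called lower (adjusted p = 0.0130 and 0.0307 from limma). SWI4, also a transcription factor gene of the list, had 0.28 and was not called (adjusted p = 0.103).

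**Figure D3:**
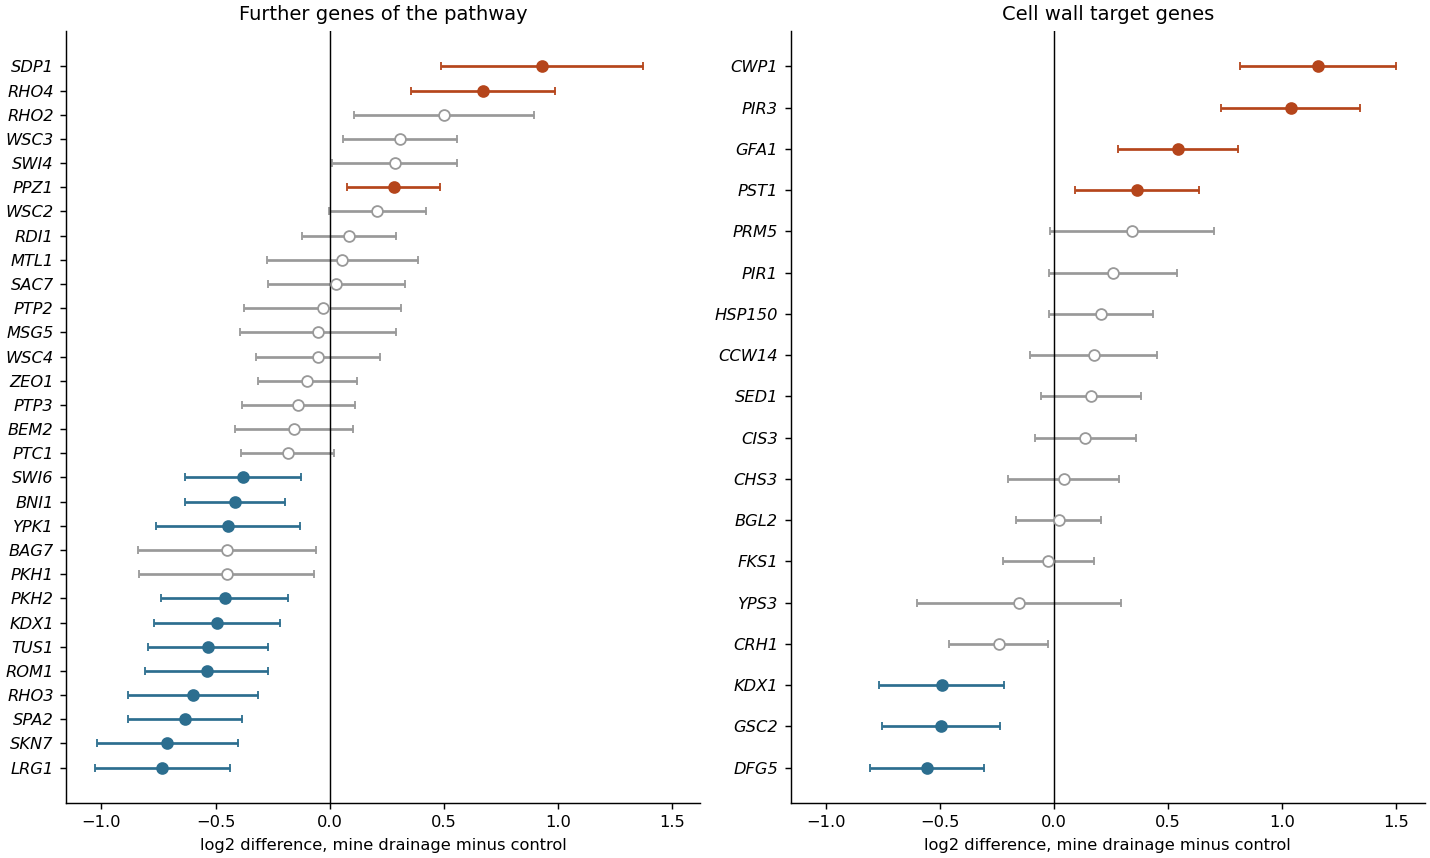
Log2 difference between mine drainage and control (horizontal axis, with 95% intervals from limma) for 30 further genes of the pathway and 18 genes known as its wall targets, each panel sorted by the difference. Filled points passed an adjusted p under 0.05 (red higher, blue lower) and open points did not; SDP1 (0.93) leads the first panel, CWP1 (1.16) and PIR3 (1.04) the second, and KDX1 stands in both.

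The genes that the pathway is known to induce in yeast did not move as a body. Of 18 wall construction and marker genes taken as targets of Slt2 and Rlm1, 4 rose, 3 fell and 11 were not called. So 38.9% changed, beside 31.6% of all probesets (14.5% higher and 17.1% lower), in a list also written with earlier results known. Their median difference was 0.15. Without control replicate 2 the counts were 2 and 1, and without control replicate 3 a single target fell, in fits where calls over all probesets fell as given above. The targets listed as wall proteins or wall mannoproteins all had positive differences, from 0.14 (CIS3) to 1.16 (CWP1), though most were not called. That split was seen only in these values. The remaining targets went both ways, and CRH1 had -0.24 with no overlap but was not called (adjusted p = 0.0831 from limma).

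CWP1 and PIR3 had the largest rises among the targets. CWP1 encodes a mannoprotein anchored in the wall, with log2 signals of 9.14, 8.85, 9.03 and 9.37 in mine drainage and 7.69, 7.93 and 8.20 in control. It rose 2.23-fold (log2 difference 1.16, standard error 0.15, adjusted p = 0.00227 from limma). PIR3, a wall protein linked to glucan, had 10.39, 9.94, 10.12 and 10.00 in mine drainage and 9.30, 8.97 and 8.96 in control. It rose 2.05-fold (log2 difference 1.04, standard error 0.14, adjusted p = 0.00211). In both genes the groups were far apart beside the spread within them, and the calls held with any single array left out.

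GFA1, the first enzyme of the path to chitin precursors, rose from 8.76 ± 0.16 to 9.31 ± 0.15 (adjusted p = 0.00918 from limma), and missed the threshold without control replicate 2 (0.50, adjusted p = 0.0515) and with the covariate (0.35, adjusted p = 0.107). PST1, a wall protein often used as a marker of the pathway, had a difference of 0.36 (adjusted p = 0.0465) with overlap between the groups, a call lost without any array except control replicate 1 or mine drainage replicate 4, and also with the covariate (0.23, adjusted p = 0.322) and in the gene-by-gene test (adjusted p = 0.103). PIR1, a relative of PIR3, had 0.26 (adjusted p = 0.137), and PRM5, another marker of Rlm1 activity, 0.34 (adjusted p = 0.127), which passed without mine drainage replicate 1 (0.45, adjusted p = 0.0460).

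GSC2 (FKS2), the glucan synthase subunit that the pathway and calcineurin induce under stress, fell. Its log2 signals were 8.57, 8.52, 8.73 and 8.87 in mine drainage and 9.01, 9.24 and 9.25 in control, with no overlap. GSC2 fell by 0.49 on the log2 scale (standard error 0.12, adjusted p = 0.0123 in limma), and it missed the threshold without control replicate 2 (-0.46, adjusted p = 0.0653) or 3 (-0.45, adjusted p = 0.0553), with the covariate (-0.44, adjusted p = 0.104) and in the gene-by-gene test (adjusted p = 0.0519). DFG5, a membrane protein needed to fix mannoproteins in the wall, fell from 9.68 ± 0.040 to 9.12 ± 0.18 (adjusted p = 0.00731, and 0.0762 with the covariate). The third target that fell was KDX1. PIR3 and CWP1, at one end of these targets, and GSC2, DFG5 and KDX1, at the other, are thus all known to be induced by the pathway and differed in direction in the same cultures.

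**Figure D4:**
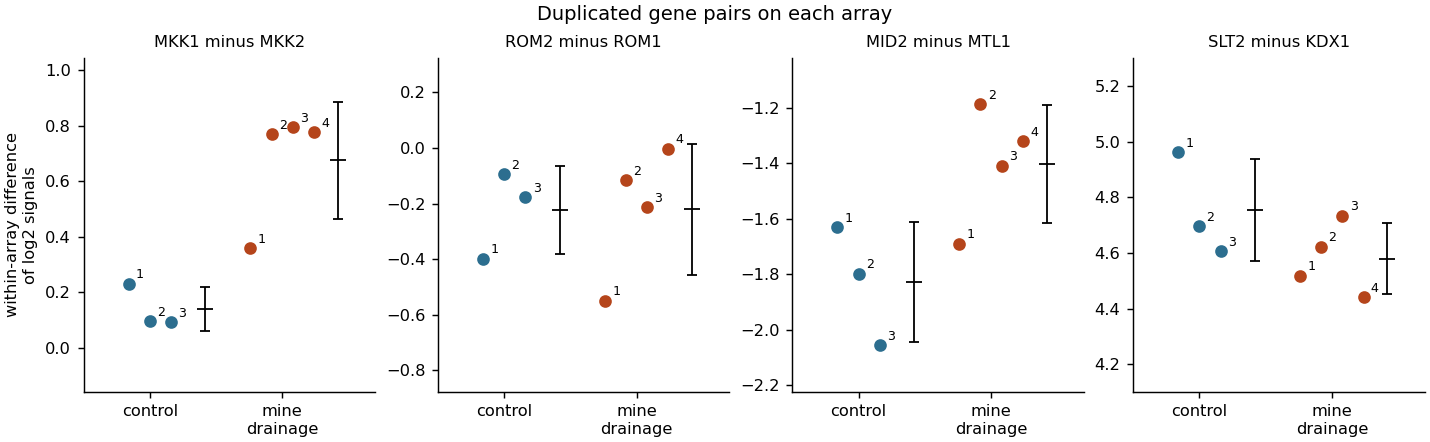
Within-array difference of log2 signals (vertical axis, a span of equal height in each panel) for 4 duplicated gene pairs on the 3 control arrays (blue) and the 4 mine drainage arrays (red), with the replicate number beside each point and the group mean ± SD as a black bar. Only the change between the groups can be read: it was 0.54 for MKK1 minus MKK2, where the groups do not overlap, and 0.0025 for ROM2 minus ROM1.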

How the data were processed

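Total RNA of 7 cultures (4 mine drainage, 3 control) was amplified, biotin-labelled and hybridized to Affymetrix Yeast Genome 2.0 arrays. The submitters' processing notes name Partek and the Robust Multichip Average (RMA). With it the authors corrected the background, quantile-normalized the arrays and summarized the probes, and they deposited the result as a log2 signal for each of 10928 probesets. Quantile normalization removes differences in total signal between arrays.

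Probesets were named through the platform annotation, with symbols and coding lengths from a table of the R64 assembly (5498 S. cerevisiae probesets). The members and lists were chosen with earlier results of these data known. Mine drainage minus control was tested with limma (version 3.58.1, R 4.3.3, default settings, 5 residual degrees of freedom, two-sided) on all 5498 probesets with no filter, with Benjamini-Hochberg adjustment over them, a test that was tried on simulated data. For pairs, an exact permutation test over 35 splits was used. Named were all members, their paralogs, up to 8 called genes a list by p and the 2 largest differences not called. Other genes of the lists were named beside them for their role. Alternatives were a gene-by-gene analysis of variance as in the methods (Benjamini-Hochberg adjustment, or, added after the data were seen, an unadjusted p with a fold limit), a trend and robust prior, array weights, further normalizations, a coding length trend, the 3′ minus 5′ covariate, a filter on dim probesets, the replicate number as a block, each array left out, and shared probesets. Precision is limited by the number of arrays. No source used here names a hybridization batch. No coordinates are printed. matplotlib 3.10.9 drew the figures.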

Additional observations from a re-analysis of the deposited data

Results flagged for a closer look

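A single value stood apart within its group. Over the 4 mine drainage arrays the MKK1 log2 signal was 7.61 to 7.64 on replicates 1, 2 and 4 and 7.85 on replicate 3, a gap of 0.857 of the whole range, above Dixon's critical value for 4 samples. It was the only such value among 34 groups tested, where chance gives about 1 in 20. Without that array the MKK1 difference was 0.33 (adjusted p = 0.0563 from limma), and all mine drainage arrays stayed above all control arrays.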

How the results depend on the processing

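With 7 arrays the calls near the threshold moved. Of the 10 genes of the pathway, 1 rose and 1 fell by the gene-by-gene test, 0 rose and 1 fell (SLT2) with the 3′ minus 5′ covariate, and 1 to 4 rose and 1 to 4 fell with each array left out. Of the 30 further genes, 1 rose and 5 fell by the gene-by-gene test, 0 and 4 with the covariate, 5 and 7 after subtraction of the coding length trend, 5 rose with a trend and robust prior or after a median shift, 7 rose with array weights, and 2 to 5 rose and 5 to 12 fell with each array left out. Of the 18 targets, 1 fell by the gene-by-gene test, 2 rose and 1 fell with the covariate, and 2 to 4 rose and 1 to 3 fell with each array left out. Over all probesets 362 rose and 368 fell by the gene-by-gene test, 228 and 283 with the covariate, and 324 to 832 rose and 364 to 980 fell with each array left out, beside 795 and 942. By a rule added with the data in view, an unadjusted p and a fold limit of 1.5, 1 and 1 of the 10 genes, 2 and 4 of the further genes and 2 and 0 of the targets rose and fell. The cause was not tested. RHO1 turned positive with array weights (0.052), a median shift (0.0084) and the covariate (0.017), and ranged from -0.054 to 0.022 with each array left out. MTL1 turned to -0.051 after a further quantile normalization and to -0.057 with the covariate, and ranged from -0.054 to 0.15 with each array left out. No other gene followed through these settings changed sign. Among the within-array pair differences, with each array left out MKK1 minus MKK2 ranged from 0.50 to 0.64, MID2 minus MTL1 from 0.31 to 0.52, SLT2 minus KDX1 from -0.25 to -0.073, and ROM2 minus ROM1 from -0.085 to 0.11, and none passed the threshold, which splits of 6 arrays cannot reach. Each gene of the lists had 1 probeset, so allowing shared probesets changed nothing.

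With the replicate number as a block (replicates 1 to 3), 5 of the 30 further genes fell, and of all probesets 432 rose and 497 fell. MKK1 (0.40, adjusted p = 0.0828), RLM1 (-0.43, adjusted p = 0.0651), ROM1 (-0.48, adjusted p = 0.0603), KDX1 (-0.49, adjusted p = 0.0687), PST1 (0.43, adjusted p = 0.0634) and PPZ1 (0.29, adjusted p = 0.145) then missed the threshold. The numbers are not taken as pairs, since deviations of arrays of equal number from their group means correlated at -0.07, -0.18 and 0.08, and only replicate 3 correlated best with its own number.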
